A study of Mus musculus with 12 samples.

Results

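The unstimulated state of NIH-3T3, an immortalised fibroblast line derived from mouse embryos, was described from its PBS-treated (Con) cultures, which were chosen by their treatment label and made up 3 of the 12 RNA sequencing libraries of the series. The other 9 libraries received recombinant stanniocalcin-1 (STC1) at 100 ng/mL, TGF-β1 at 10 ng/mL or both proteins, and no Con level is set against them here. All groups used this 1 cell line and were harvested after 24 h, and the series text calls the 3 libraries of a group biological replicates. The levels below describe this continuously dividing line and no fibroblast of a tissue.

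Fibroblasts are the mesenchymal cells that build and remodel connective tissue. They secrete fibrillar collagens, fibronectin and proteoglycans, crosslink them outside the cell with lysyl oxidases, grip them through integrins, and read TGF-β and platelet-derived growth factor through receptors on their surface. TGF-β ligands bring a type II and a type I receptor kinase together, the type I kinase phosphorylates Smad proteins, and these carry the signal to the nucleus.

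The Con libraries held 18521810, 17063025 and 17064781 expected counts (Con replicates 1, 2 and 3), and values below are given in that order. A level in CPM is the share of the scaled library's counts that a gene took, expressed as counts per 1e6. CPM rises with transcript length, so levels of different genes are set against each other as CPM per kilobase of transcript. Such an order depends on the length used: of 421 pairs of genes that did not overlap, taken among the 6 highest detected members of each list, 65 stood in the opposite order by coding length. Where an order given below turned in this way, the values per coding kilobase follow it. Values after ± are the SD over the 3 libraries (n = 3). A gene counted as detected at 1 CPM or more in every Con library, and silent at no more than 3 counts summed over the 3 libraries. Of 16300 genes with a row in the deposited table, 11092 (68.0%) were detected, 3103 (19.04%) were silent, of which 1371 had 0 counts, and 2105 (12.9%) lay between. Each row held a value above 0 in at least 1 of the 12 libraries of the series, so these shares refer to the rows of the table. By RefSeq type 16018 rows were protein-coding genes and 9 were long non-coding RNA genes. Ranks and shares of counts below therefore describe a table of almost only protein-coding genes, not all RNA of the cells. The 68.0% is the background against which the detected share of a gene list is to be read. Genes without a row were not analysed here. For a gene at 0 counts in all 3 libraries, counting error alone allows a level of up to 0.0570 CPM (3 counts over the summed libraries).

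Among the 30 genes with the most reads were 8 cytosolic ribosomal protein genes, 6 genes of the matrix or collagen processing lists, and the cytokine receptor gene Il1rl1. The 10 genes with the most reads held 5.16 ± 0.0567% of all counts, the first 30 held 9.93 ± 0.0501%, and 857 genes held 50% of them. Eef1a1, which delivers aminoacyl-tRNA to the ribosome, had the most reads, at 11737, 11649 and 12178 CPM. It was followed by Fn1, the gene of the adhesive matrix protein fibronectin, at 6285, 6006 and 5806 CPM. Then came Col1a2, a chain of collagen I, at 5693, 5399 and 5238 CPM, and Lox, the lysyl oxidase that starts crosslinking of collagen and elastin, at 5308, 5162 and 4876 CPM. The elongation factor gene Eef2 had 4458, 4186 and 4286 CPM, the glycolytic enzyme gene Gapdh 4232, 4204 and 4274 CPM, and the ribosomal protein gene Rps2 3739.6, 3674 and 3853 CPM. Within each of Fn1, Col1a2 and Lox, Con replicate 1 was the highest library and Con replicate 3 the lowest.

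Il1rl1, which encodes ST2, the receptor for interleukin-33, stood at rank 8 of all genes by reads. It had 3565, 3753 and 3775 CPM, and Con replicate 1 was the lowest library. Il1rl1 is known to give a membrane receptor and a soluble decoy form that share most of their coding sequence, and the table has 1 value for the gene. The RefSeq promoter table (build GRCm38.p6) lists 2 starts for it on the plus strand, 10059 bases apart. In rat fibroblasts, where the gene is also known as Fit-1, the start nearer to the coding exons is known to be the one used. The 100 bases before each start are shown, because gene counts do not tell the starts apart, beside those before the single listed start of Vim, the intermediate filament gene of mesenchymal cells. Capitals mark TATAAA on the plus strand and CCAAT on either strand (ATTGG is CCAAT read from the other strand).
Vim, chr2:13574211-13574310, plus strand: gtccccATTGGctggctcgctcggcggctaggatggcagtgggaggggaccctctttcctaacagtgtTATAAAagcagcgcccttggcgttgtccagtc
Il1rl1 upstream start, chr1:40429470-40429569, plus strand: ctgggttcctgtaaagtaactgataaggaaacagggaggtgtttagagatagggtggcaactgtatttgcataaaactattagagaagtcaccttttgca
Il1rl1 downstream start, chr1:40439529-40439628, plus strand: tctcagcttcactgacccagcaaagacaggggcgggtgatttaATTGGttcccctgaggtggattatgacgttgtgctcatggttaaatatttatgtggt
Vim held TATAAA close to its start and a CCAAT motif on the minus strand farther out. The downstream Il1rl1 window held a CCAAT motif on the minus strand, and the upstream window held neither motif. TATAAA within the last 50 bases before a start is uncommon: 2.63% of all 32851 windows in the RefSeq table had it. Of the 100 genes with the most reads 77 had a window, some more than 1, and 6 of their 100 windows had it. Windows were found for 8942 detected genes and 2346 silent genes. Among windows of detected genes 1.11% had it, and among those of silent genes 4.03%. CCAAT anywhere in the 250 bases before a start, on either strand, was found in 33.8% of all windows and in 36.4% of those of detected genes. These matches are descriptions of sequence, and no binding was measured.

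The remaining 7 of the 15 genes with the most reads were Hsp90ab1 and Hspa8, both cytosolic chaperones, the ribosomal protein genes Rplp0 and Rps6, the cytoplasmic actin gene Actg1, the thrombospondin gene Thbs1 and the prothymosin gene Ptma. Hsp90ab1 had 3574, 3553 and 3614 CPM and Hspa8 2662, 2704 and 2703 CPM. Rplp0 had 3601, 3511 and 3598 CPM and Rps6 2592, 2587 and 2745 CPM. Thbs1, which encodes a matrix glycoprotein known to release TGF-β from its latent complex, had 3083, 3170.5 and 3068 CPM. Actg1 had 3171, 3114 and 3119.6 CPM and Ptma 2804, 2928 and 2949.6 CPM. The genes in places 16 to 30 had means between 2028 and 2585 CPM. They were Col1a1, the growth factor gene Igf2, the ferritin light chain gene Ftl1, Rps3a1, Thbs2, Vim, the desaturase gene Scd2, the tubulin gene Tubb5, Rpl3, Rpsa, Actb, Tpt1, Rpl4, the chaperone gene Hsp90b1 and Rps4x. The 6 from the matrix or collagen processing lists were Fn1, Col1a2, Lox, Thbs1, Col1a1 and Thbs2.

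**Figure D1:**
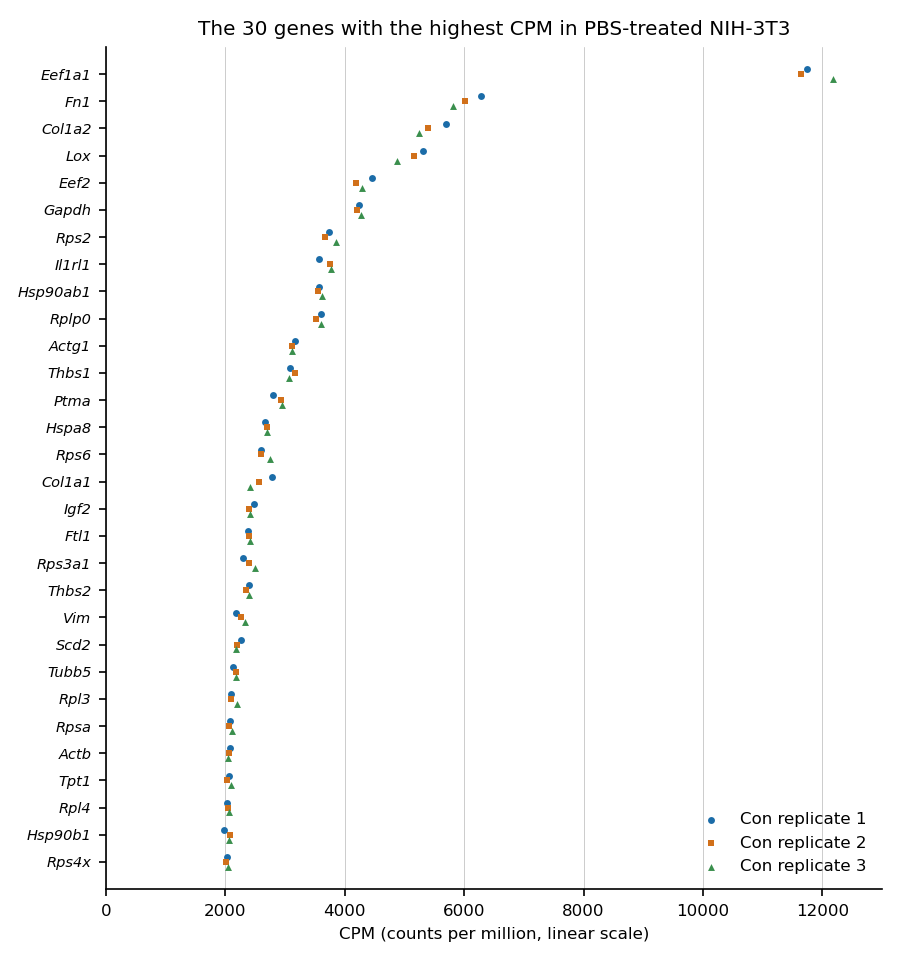
CPM (linear axis) of the 30 genes with the highest mean in PBS-treated NIH-3T3, with 1 point for each of the 3 Con libraries. Eef1a1 lies between 11649 and 12178 CPM, Fn1, Col1a2 and Lox between 4876 and 6285, and the points of a gene lie close together.

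Scaling by transcript length changed this order. Per kilobase, Eef1a1 stayed first at 6608 ± 158 CPM per kilobase, followed by Rps2 at 3763 ± 90.9, Gapdh at 3146 ± 26.1, Rps6 at 3008 ± 102 and Actg1 at 2752 ± 27.8. By coding length Actg1 (4354) stood above Rps2 (4272), Gapdh (4081) and Rps6 (3536). Both lengths used for Actg1 were shorter than those for Actb, although their coding sequences are near identical. The places of Actg1 in these orders are therefore uncertain. Of the 30 genes highest per kilobase, 22 were ribosomal protein genes and 0 were in the matrix or collagen processing lists, and of the 30 highest per coding kilobase 14 and 1, the 1 being Lox. Lox stood at rank 54 per kilobase and rank 9 per coding kilobase, Col1a2 at ranks 64 and 117, and Fn1 at ranks 91 and 170. Il1rl1 stood at rank 41 per kilobase, with 1389.5 ± 43.5 CPM per kilobase, and at rank 14 per coding kilobase. Each rank takes a single length for the gene, although its membrane and soluble forms can differ in length. A longer form would give a lower value, so these ranks depend on the length taken. Cytosolic ribosomal proteins together (82 of 83 genes detected) took 80523, 80494 and 83198 CPM, or 8.14% of counts on average, with Con replicate 3 highest. Ribosomal protein genes, Gapdh and Eef1a1 have many processed copies in the mouse genome, and their levels are uncertain where the counting split reads among copies. A list of 24 translation genes had 23 of 24 detected and one of 21 housekeeping genes, in which Gapdh and Ppia (cyclophilin A) led per kilobase by either length, had 21 of 21.

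The 6 fibroblast markers were all detected, and each exceeded 100 CPM in every library. Col1a1, the other chain of collagen I, had 2777, 2569 and 2409 CPM. Pdgfra, the α receptor for platelet-derived growth factor and a common marker of fibroblasts, had 1399, 1361 and 1378 CPM. Pdgfrb, the β receptor, which pericytes also carry, had 147, 134 and 134 CPM. With Col1a2, Fn1 and Lox, given above, the 6 genes summed to 21608, 20631 and 19841 CPM, or 2.07 ± 0.0916% of counts. Per kilobase Lox (1111 ± 47.7) and Col1a2 (1018 ± 43.1) overlapped between libraries, Fn1 (774 ± 30.9) lay below both, and Col1a1 (436 ± 31.1), Pdgfra (211 ± 2.93) and Pdgfrb (25.6 ± 1.4) followed without overlap. Each marker of the fibroblast label was thus present. Detection alone does not set fibroblasts apart from other cells, since 68.0% of all rows were detected.

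In a wider list of fibroblast genes, 44 of 52 members with a row were detected. The highest per kilobase was S100a4, a calcium-binding protein also known as fibroblast-specific protein, at 2183 ± 26 CPM per kilobase, but by coding length Lox (4149) stood above it (3588). Vim reached 1028 ± 33.5 and overlapped Lox and Col1a2, and Sparc, the secreted matrix-binding glycoprotein osteonectin, reached 473 ± 6.98. Of the mesenchymal transcription factors, named after their values were seen, Prrx1 had 1233 ± 23.7 CPM, Twist2 143 ± 2.14, Zeb1 111 ± 2.78, Snai1 44.2 ± 0.853 and Snai2 21.5 ± 1.77. Of surface markers used to sort fibroblasts, Thy1 had 214 ± 4.23 CPM, Cd44 204 ± 6.68, Cd34 168 ± 5.69, Ly6a (Sca-1) 73 ± 2.89 and Pdpn 42.4 ± 2.34. Fap, the fibroblast activation protein, was silent with 3 counts over all libraries, as were Wt1 (2) and Nt5e, the gene of CD73 (1). Dpp4 and Pi16, which mark fibroblast subsets of skin and adventitia, had 5 and 4 summed counts. Tcf21 and Foxd1 were not analysed here.

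Markers of other cell types were mostly below detection, and for 9 of 18 such lists (epithelium, endothelium, T cell, B cell, glia, skeletal muscle, hepatocyte, germ cell and erythroid) no member was detected. Epithelial markers summed to 0.91 ± 0.0529 CPM over 7 genes and endothelial markers to 0.631 ± 0.139 CPM over 8, and Epcam and Kdr were at 0 counts. In bulk RNA a low level cannot tell few cells of a type from little RNA per cell. Macrophage markers summed to 8.41, 9.83 and 9.93 CPM, with Cd14 at 4.8, Cd68 at 3.56 and Adgre1 (F4/80) at 0 counts. Of 123 markers with a row in the 18 lists, 17 were detected. The highest per kilobase were Spp1 (osteopontin, from the osteoblast list) at 439.6 ± 11.8, Ets1 at 20.8 ± 0.435, Klf4 at 17.3 ± 0.486, Runx2 at 13.6 ± 1.04 and Sox9 at 9.18 ± 0.545. These genes are known outside the cell types whose lists they come from. Besides Cd14 and Cd68, others included Cspg4 (NG2, 51.2 CPM), Lpl (29.7), Gata4 (12.1), Tfap2a (9.08), Map2 (8.27), Sox5 (7.18), Fabp4 (5.32), Snap25 (2.79) and Nkx2-5 (1.66). Other members of the lists that Sox9, Spp1, Lpl and Cspg4 come from were at or near 0: Acan of cartilage, Alpl of bone, Adipoq of fat and Kcnj8 of pericytes had 0 counts and Col2a1 had 2 in all.

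**Figure D2:**
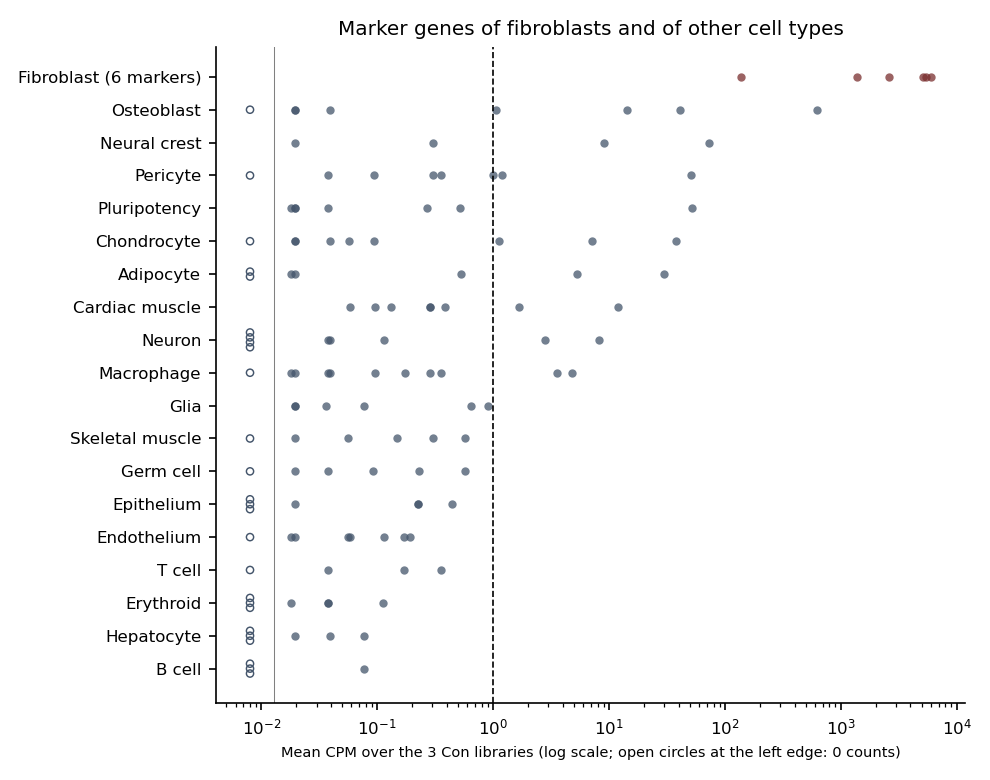
Mean CPM over the 3 Con libraries (log axis) of each marker with a row, by cell type, with open circles at the left edge for genes at 0 counts and a dashed line at 1 CPM. The 6 fibroblast markers lie between 138 and 6032 CPM, and most markers of other cell types lie left of the line.

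The contractile and cytoskeletal list was led by general actomyosin genes. Of its 30 members 25 were detected, and they summed to 14511 ± 47.4 CPM. Actg1 (2752 ± 27.8 CPM per kilobase) exceeded Actb (1075 ± 10.7) 2.56 ± 0.0163-fold per kilobase and 2.37-fold per coding kilobase. The lengths used for Actg1 were shorter than those for Actb, which raised both ratios. The SD does not cover an error of length, so the size of this difference is uncertain. Next came the light chain Myl6 (579 ± 19), the tropomyosin Tpm4 (365 ± 9.1) with the light chain Myl12a (352 ± 21.5), which overlapped, and Tpm1 (305 ± 6.44). By coding length Myl12a (1321) and Tpm4 (1044) stood above Myl6 (866). Acta2, the smooth muscle actin that marks myofibroblasts, was present without any added TGF-β1, at 392, 388 and 397 CPM. Per kilobase it reached 193 ± 2.15, and Actb exceeded it 5.57 ± 0.104-fold. The actins are near identical in coding sequence, so their counts are uncertain where reads were shared.

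The smooth muscle genes around Acta2 did not share its level. Tagln (SM22) had 75.6, 72 and 76.5 CPM, whereas Myl9, the smooth muscle regulatory light chain, had 3.13, 3.92 and 4.87 CPM and Mylk, its kinase, 3.4, 3.8 and 3.17 CPM. Cnn1 (calponin) had 19 summed counts and 0.357 CPM, Des (desmin) 16 counts, Myh11 (smooth muscle myosin) 5 and Actc1 (cardiac actin) 2. The related Cnn2 and Cnn3, named after their values were seen, had 301 ± 14.7 CPM and 375 ± 8.56 CPM. Per kilobase Acta2 stood at 193, Tagln at 46.8 ± 1.5, Myl9 at 3.52 ± 0.775 and Mylk at 0.442 ± 0.041, each apart from the next of these.

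Matrix genes made up 3.85 ± 0.104% of counts: collagens, matrix glycoproteins and proteoglycans together gave 39626, 38342 and 37679 CPM. Among collagens 22 of 40 genes with a row were detected, 7 lay between and 11 were silent. They summed to 13848, 13016 and 12687 CPM, with Con replicate 1 highest. Fibrillar collagen I led: Col1a2 had 1018 ± 43.1 CPM per kilobase and Col1a1 436 ± 31.1. The Col1a2 to Col1a1 ratio per kilobase was 2.27, 2.33 and 2.41 in the libraries, and 2.23 with coding length in place of transcript length. The collagen I molecule is known to hold more Col1a1 than Col1a2 chains, so the order of the transcripts was the opposite of that of the chains.

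Collagen VI, a beaded filament that lies close to cells, came next. Col6a1 had 1140.4, 1061 and 1078 CPM and 267 ± 10.2 CPM per kilobase, Col6a2 149 ± 5.79 and Col6a3 40.2 ± 1.75, so the 3 chains, which assemble in equal numbers, were unequal as transcripts, with Col6a1 6.64 ± 0.0544 times Col6a3. Col3a1, which joins collagen I in fibrils, reached 149 ± 6.99 CPM per kilobase and overlapped Col6a2. Col5a2, a chain of collagen V, which nucleates fibrils, reached 81.6 ± 1.27, 1.71 ± 0.0474 times its partner Col5a1. Chains of the basement membrane collagen IV, named after their values were seen, had 307 ± 11.6 CPM for Col4a1 and 189 ± 9.42 CPM for Col4a2. The tissue-restricted pair Col4a5 and Col4a6 had 196 ± 4.24 CPM and 42.1 ± 1.45 CPM, while Col4a3 and Col4a4 had 4 and 12 summed counts. Among the silent collagens, Col2a1 had 2 counts, Col9a2 2, and Col14a1, Col15a1, Col8a2 and Col6a6 0. Cartilage collagens were not all silent, since Col27a1 and Col11a2 were detected at 17.2 ± 1.25 CPM and 4.56 ± 0.31 CPM, and Col12a1, a fibril-associated collagen of connective tissue, had 62 ± 5.0 CPM.

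Genes for collagen assembly and crosslinking accompanied them, with 26 of 29 detected and 9367 ± 262 CPM in sum, to which Lox gave 5115 CPM. Serpinh1, the collagen chaperone HSP47, had 939, 926 and 940.4 CPM. P4hb, the β subunit of prolyl 4-hydroxylase, had 939.6, 914 and 911 CPM, and Ppib, the cyclophilin of the endoplasmic reticulum, 176, 178 and 179.7 CPM. The highest per kilobase after Lox were Serpinh1 (426 ± 3.76), P4hb (322 ± 5.52), Ppib (199.6 ± 1.98), Pcolce (181 ± 7.09), which enhances cleavage of procollagen, and Loxl1 (82.2 ± 3.3). The lysyl oxidase family was very unequal. Lox exceeded Loxl1, known for elastic fibre upkeep, 13.5 ± 0.0861-fold per kilobase and 27.9-fold per coding kilobase. Loxl3 had 63.9 ± 3.21 CPM, Loxl4 9.44 ± 1.07 CPM and Loxl2 5 summed counts.

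**Figure D3:**
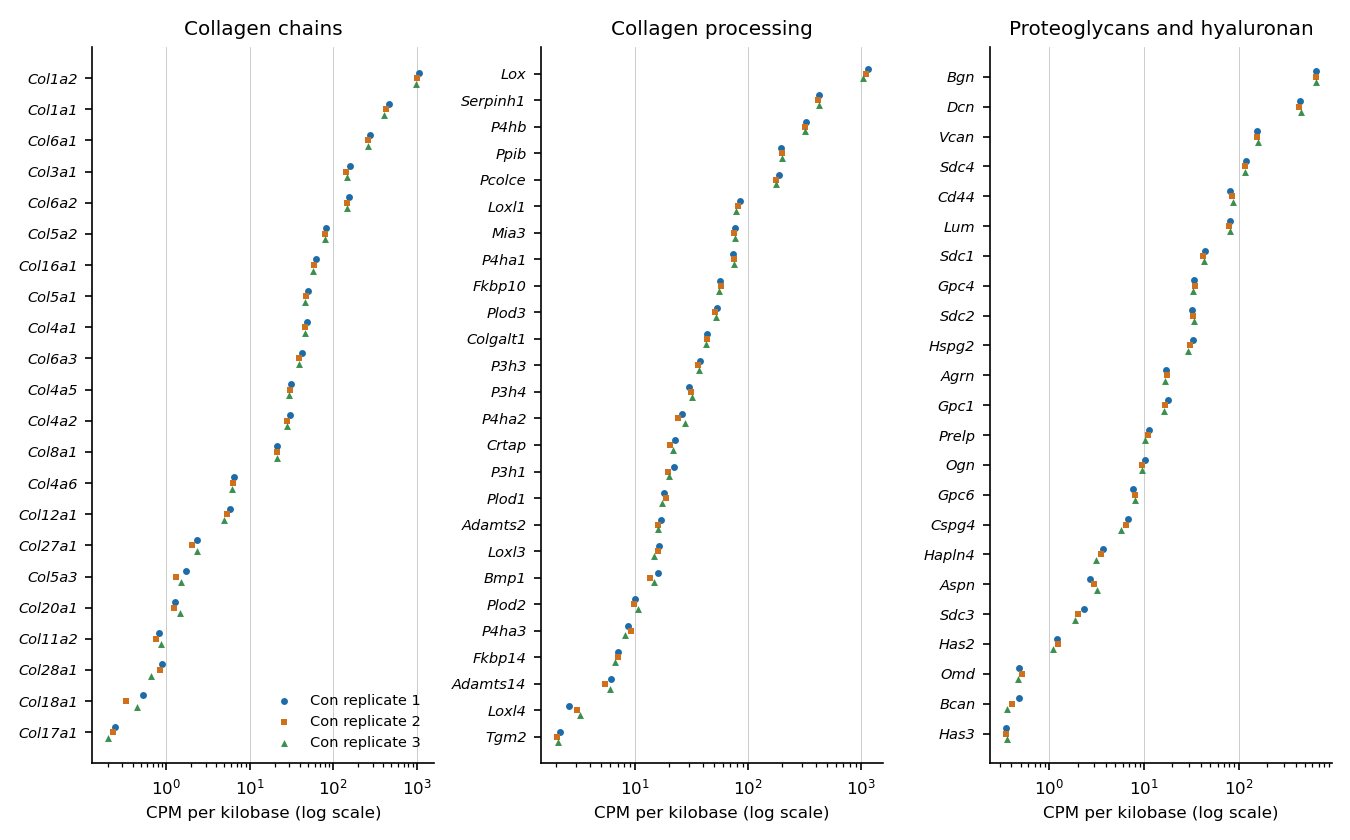
CPM per kilobase of transcript (log axes) of detected collagen chains, collagen processing genes and proteoglycan genes, with 1 point for each of the 3 Con libraries. Col1a2 leads the chains at 1018, Lox the processing genes at 1111 and Bgn the proteoglycans at 659.

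Of the matrix glycoproteins 46 of 69 genes with a row were detected and 12 were silent. Per kilobase Fn1 (774 ± 30.9) was followed without overlap by Thbs1 (531 ± 9.48), Sparc (473 ± 6.98), Spp1 (439.6 ± 11.8), Thbs2 (404 ± 4.6) and Efemp1 (fibulin-3, 246 ± 4.54). By coding length Sparc (1155) stood above Thbs1 (884) and Fn1 (876). Elastic fibre genes were uneven per kilobase: Efemp2 reached 96.5 ± 1.41, Fbln5, which helps elastin assemble, 76.1 ± 0.312 and Fbn1 (fibrillin-1) 21.8 ± 0.299, while by coding length Fbln5 (329.9) stood above Efemp2 (119). Eln, the gene of elastin itself, had only 15 summed counts (0.287 CPM). Fbn2 had 1 count and Mfap2, a fibrillin partner, 0. Of genes often named as products of activated fibroblasts, Postn (periostin) had 34.5, 33.6 and 33.8 CPM, Tnc (tenascin C) 323, 319 and 306 CPM and Ccn2 (connective tissue growth factor) 82.4, 91.4 and 88.2 CPM. Igfbp3 and Igfbp5, carriers of insulin-like growth factors, each had 1 count in all, while Igfbp6 had 136 ± 2.62 CPM.

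Small and large proteoglycans were led by Bgn (biglycan), at 1602, 1592 and 1586 CPM. Per kilobase Bgn reached 659 ± 3.39, Dcn (decorin) 444 ± 9.92, Vcan (versican) 158 ± 0.588 and Sdc4 (syndecan-4) 118 ± 0.931, with no overlap, and then Cd44, the hyaluronan receptor (84.4 ± 2.77), which overlapped Lum (lumican, 80.7 ± 0.85). By coding length Sdc4 (488) and Lum (195) stood above Vcan (186). Of 37 members with a row 23 were detected. Acan (aggrecan of cartilage) and Esm1 had 0 counts and Gpc3 2. Of the hyaluronan synthases Has2 had 4.99 ± 0.307 CPM and Has3 2.07 ± 0.0377, while Has1 had 16 summed counts.

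Matrix-degrading enzymes and their inhibitors had 26 of 40 members detected. The lysosomal cathepsin Ctsl led at 1319.8, 1360.1 and 1378 CPM and 686 ± 15 CPM per kilobase. Then came the gelatinase Mmp2 (238 ± 6.57), Serpinf1 (PEDF, 204 ± 8.87) overlapping Ctsd (193 ± 4.48), the inhibitor Timp2 (183 ± 3.94) and Ctsb (108 ± 0.793). By coding length Timp2 (1029) and Ctsb (503) stood above Mmp2 (368), Ctsd (334) and Serpinf1 (299). The membrane-bound Mmp14, which with Timp2 activates pro-Mmp2, had 259, 255 and 258 CPM. All members of this Mmp14, Timp2 and Mmp2 set were therefore expressed, and the order of Mmp2 over Timp2 (1.30 ± 0.0307) reversed to 0.358 when coding length was used. The collagenases Mmp13 and Mmp8 were at 0 counts and the stromelysin Mmp3 at 1. Mmp9, the other gelatinase, had 11, 10.0 and 11.2 CPM.

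Type I receptors of the TGF-β superfamily formed a partial set. Tgfbr1, the kinase that TGF-β itself uses, had 46.2, 49.7 and 48.3 CPM. Bmpr1a, a receptor for bone morphogenetic proteins, had 137, 139.8 and 143 CPM, Acvr1b (ALK4, for activins) 36.5, 36.5 and 37.6 CPM and Acvr1 (ALK2) 37.8, 35 and 36.1 CPM. Per kilobase they ran in the order Bmpr1a (23.5 ± 0.546), Tgfbr1 (16.8 ± 0.629), Acvr1 (11.9 ± 0.466) and Acvr1b (8.34 ± 0.147), each apart from the next, with Acvr1b (24.3) above Acvr1 (23.8) by coding length. Acvrl1 (ALK1), known from endothelium, had 33 summed counts (0.633 CPM), and Acvr1c (ALK7) and Bmpr1b had 0.

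Among type II receptors, Tgfbr2, which binds TGF-β, had 117, 113 and 112 CPM, and Bmpr2 129, 131 and 124 CPM. The activin receptors had 24.7, 26.5 and 24 CPM for Acvr2a and 9.44, 10.7 and 10.5 CPM for Acvr2b. Amhr2, the receptor for anti-Müllerian hormone, had 8 summed counts. Per kilobase Tgfbr2 (19.8 ± 0.439) stood above Bmpr2 (9.91 ± 0.26), Acvr2a (4.4 ± 0.225) and Acvr2b (3.87 ± 0.252), each apart from the next. Tgfbr2 exceeded Tgfbr1 1.18 ± 0.0680-fold per kilobase and 2.05-fold per coding kilobase, so the size of that difference depended on the length used. The BMP receptor Bmpr1a exceeded Tgfbr1 1.40 ± 0.0439-fold per kilobase and 2.73-fold per coding kilobase.

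The highest receptor of the family was the co-receptor Tgfbr3 (betaglycan), which presents TGF-β2 in particular to Tgfbr2. Tgfbr3 had 322, 314 and 312 CPM and 51.9 ± 0.821 CPM per kilobase, 2.63 ± 0.0172 times Tgfbr2. The neuropilin Nrp1 (37.8 ± 0.0486), Itgav, the αv integrin that frees latent TGF-β (34.3 ± 1.37), and the neuropilin Nrp2 (30.3 ± 0.513) followed, each apart from the next. The repulsive guidance molecules Rgmb (15.9 ± 0.634) and Rgma (15.6 ± 0.49), which are BMP co-receptors, overlapped. By coding length Itgav (77.2), Nrp2 (71.3) and Rgmb (69.4) stood above Nrp1 (49.1). Eng (endoglin), the other large co-receptor, had only 47 summed counts (0.90 CPM). The 3 silent members of the co-receptor list were Tdgf1, Hjv and the integrin subunit gene Itgb6, with 1 count for Tdgf1 and 0 for the others.

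**Figure D4:**
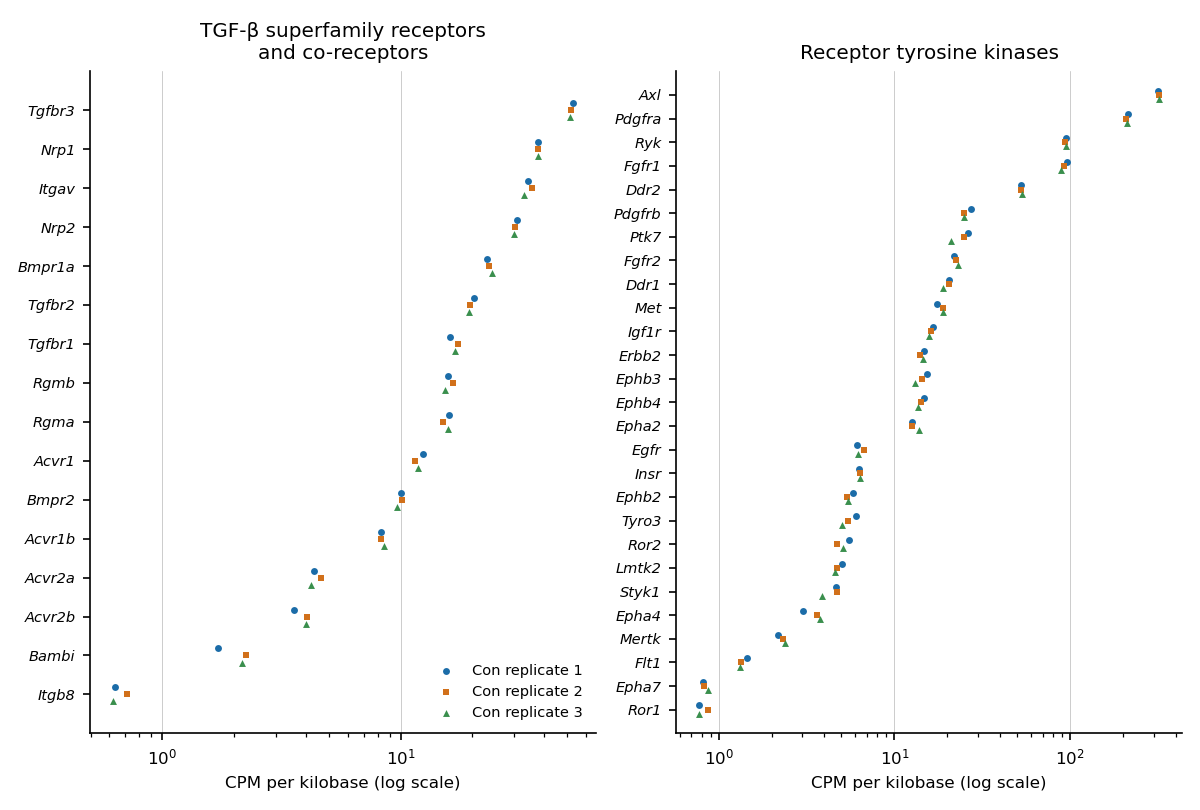
CPM per kilobase of transcript (log axes) of detected TGF-β superfamily receptors and co-receptors and of receptor tyrosine kinases, with 1 point for each of the 3 Con libraries. Tgfbr3 leads the first panel at 51.9, and Axl at 318 and Pdgfra at 211 lead the second.

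Ligands of the superfamily were low. Of 21 with a row 8 were detected, and together they gave 214 ± 10.2 CPM. Tgfb3 had 47.8, 43.4 and 44.9 CPM, Tgfb1 22.4, 23 and 19.1 CPM and Tgfb2 7.77, 6.67 and 6.28 CPM. Per kilobase Inhba, the activin A subunit (24.8 ± 0.959), led, then Bmp1 (14.7 ± 1.21), a procollagen protease that carries a BMP name, overlapping Tgfb3 (13.4 ± 0.672), then Tgfb1 (9.88 ± 0.967), Gdf11 (7.76 ± 0.228) and Inha (4.67 ± 0.572). By coding length Tgfb3 (36.7) and Bmp1 (33.1) stood above Inhba (29.8), and Gdf11 (25.9) above Tgfb1 (18.4). Bmp4 had 4 summed counts, Bmp6 1 and Gdf15, Nodal and Lefty1 0. Bmp2, Bmp5, Bmp7 and Inhbb were not analysed here.

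Carriers, antagonists and Smads of the pathway were detected in 29 of 33 cases. Fstl1, a follistatin-like secreted protein, had 864, 851 and 864 CPM. The BMP antagonists Grem1 and Nog had 1 count each in all. The latency proteins that hold TGF-β in the matrix were present, Ltbp1 with 32 ± 0.706 CPM per kilobase and Ltbp3 with 30.4 ± 0.845, which overlapped. Of the Smads, named after their values were seen, Smad4 had 97.2 ± 1.8 CPM, Smad2 65.1 ± 2.1, Smad3 56.4 ± 2.82, Smad5 81.3 ± 0.506 and Smad1 35.3 ± 1.42. Scaled by length, Smad2 was 2.44 ± 0.0785 times Smad3 per kilobase and 1.05 times per coding kilobase. The inhibitory Smad7 and Smad6 had 9.2 ± 0.519 CPM and 4.07 ± 0.545 CPM. Of the BMP targets Id3 reached 47.4 ± 1.66 CPM per kilobase and Id1 17.6 ± 0.901, and Tgif1, a repressor of Smad targets, 39.2 ± 1.58.

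Receptor tyrosine kinases were led by Axl and Pdgfra. Axl, which is activated by the ligand Gas6, had 1286, 1305 and 1300.0 CPM. Per kilobase Axl (318 ± 2.44) exceeded Pdgfra (211 ± 2.93) 1.51 ± 0.0323-fold. Ryk, a Wnt receptor (94.2 ± 0.999), overlapped Fgfr1 (92 ± 3.3), and Ddr2, a receptor for fibrillar collagen (52.9 ± 0.381), followed, although by coding length Ddr2 (171) stood above Fgfr1 (151) and Ryk (142). Pdgfrb reached 25.6 ± 1.4 and overlapped Ptk7, which in turn overlapped Fgfr2. Pdgfra exceeded Pdgfrb 7.86, 8.37 and 8.52-fold per kilobase in the libraries. Other growth factor receptors, named after their values were seen, were Igf1r at 184 ± 4.53 CPM, Met at 125 ± 5.05, Erbb2 at 72.4 ± 1.79, Insr at 59.3 ± 0.328 and Egfr at 41.8 ± 1.94. Of 45 kinases with a row 27 were detected and 11 were silent. Kdr and Kit had 0 counts, Flt4, Fgfr3 and Tie1 1 each, and Fgfr4 3, whereas Flt1 had 9.06 ± 0.468 CPM.

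The ligands for these receptors were dominated by Igf2, the fetal insulin-like growth factor, at 2477, 2399.5 and 2406 CPM. Per kilobase Igf2 reached 632 ± 11.1, followed by the epithelial growth factor Fgf7 (156 ± 4.72), the macrophage growth factor Csf1 (110.0 ± 3.76), Vegfa (48.2 ± 2.2), Angptl2 (38 ± 1.95) and Ptn (pleiotrophin, 36.1 ± 2.14), with Ptn (115) above Vegfa (97.9) by coding length. Igf1, by contrast, had 21 summed counts. For the PDGF receptors, Pdgfa had 28.6, 27.6 and 28 CPM and Pdgfc 41.6, 45.6 and 42.4 CPM, and Pdgfb had 0 counts in all libraries. Gas6, the ligand of Axl, had 5.59 ± 0.343 CPM, and Pros1 (protein S), which can also engage receptors of that family, 55.8 ± 2.1 CPM. Fgf1 and Ntf3 had 0 counts, Fgf9 2 and Areg 1. Hgf, the ligand of Met, had 83 ± 2.31 CPM, and Kitl, the ligand of Kit, 119 ± 3.53 CPM.

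Among other receptors (59 of 77 detected) Il1rl1 stood apart at 1389.5 ± 43.5 CPM per kilobase. The next were the TWEAK receptor Tnfrsf12a (157 ± 5.61), the endocytic receptor Lrp1 (103 ± 6.32), the growth hormone receptor Ghr (78 ± 0.726), the Wnt receptor Fzd1 (69.9 ± 2.81) and Il6st (gp130, 62.6 ± 0.581), each apart from the next. By coding length Il6st (198) and Fzd1 (152) stood above Lrp1 (113) and Ghr (110.0). The accessory chain that ST2 needs for signalling, Il1rap, had 151, 151 and 150.1 CPM. Il1rl1 exceeded it 33.98, 35.6 and 36.1-fold per kilobase, and 44.1-fold per coding kilobase. This excess depends on the single length taken for Il1rl1 and includes any reads of the soluble form. Il1r1, the interleukin-1 receptor, had 142, 142 and 148 CPM. The ligand gene Il33 had 45 summed counts (0.862 CPM). Esr2, F2rl1, Ptger2, S1pr4 and Fzd9 were at 0 counts and Ednrb (an endothelin receptor) at 1, and Agtr1a and Agtr1b were not analysed here.

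Integrin genes (15 of 25 detected) were led by Itgb1, the common β1 subunit, at 741, 752 and 763 CPM and 197 ± 2.84 CPM per kilobase. Itgb5 (39 ± 0.283) followed, then Itgav (34.3 ± 1.37) overlapping Itga5, the α subunit of the fibronectin receptor (32.9 ± 1.14), and then Itga6 (13.1 ± 0.607) and Itga3 (2.96 ± 0.0743), with Itgav (77.2) above Itgb5 (51.1) by coding length. The collagen-binding α subunits were low: Itga11 had 14, 13.5 and 11.4 CPM, Itga1 2.59, 2.17 and 2.17 CPM, and Itga2 2 counts in all. Among partners of αv that activate TGF-β, Itgb8 had 5.51 ± 0.40 CPM, Itgb3 2.84 ± 0.263, and Itgb6 0 counts. Itga4 had 3 counts and the leukocyte subunit Itgax 0.

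The proteins added in the other groups of the series are secreted factors, and the untreated line transcribed their genes at low levels. Stc1 had 10.7, 11.1 and 9.87 CPM and its relative Stc2 20.8, 20.2 and 20.9 CPM. Per kilobase Stc2 exceeded Stc1 2.09 ± 0.162-fold. Pappa and Pappa2, proteases that stanniocalcins are known to inhibit, had 19.7 ± 0.946 CPM and 62.3 ± 2.94 CPM, and the Pappa substrate Igfbp4 16.9 ± 1.53 CPM. Ucp2, a mitochondrial carrier reported to respond to STC1, led this list per kilobase (13.6 ± 0.538).

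Genes of the cell cycle were expressed throughout. All but 1 of the 35 cell cycle and p53 pathway genes with a row were detected, the exception being Tert (34 summed counts). Per kilobase Pcna, the sliding clamp of DNA polymerase (262 ± 7.35), overlapped Cdk4 (262 ± 0.644). They were followed by Mtap (219 ± 1.6), Top2a (149.6 ± 3.2), and Ccna2 (103 ± 3.15) overlapping Trp53 (101 ± 2.55). By coding length Mtap (723) stood above Cdk4 (591) and Pcna (509), and Ccna2 (242) above Top2a (170.4). Mtap, the neighbour of the Cdkn2a and Cdkn2b genes, had 618, 613 and 609.6 CPM. Cdkn2a and Cdkn2b themselves were not analysed here, while the other members of that inhibitor family, Cdkn2c and Cdkn2d, had 122 ± 3.31 CPM and 19.1 ± 1.17 CPM. The proliferation antigen gene Mki67 had 546 ± 17.2 CPM and the p53 target Cdkn1a 51.7 ± 0.223 CPM.

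The 3 libraries lay close together, and the spread had a pattern by gene group. Spearman correlations across the 11092 detected genes were 0.998 for each pair of libraries (genes are not independent replicates), and edgeR's median biological coefficient of variation was 2.25%. Among 104 genes at a mean of 1000 CPM or more, the root mean square coefficient of variation was 2.49%, against 0.606% from counting alone. Among 1913 genes between 1 and 10 CPM it was 12.99%, against 13.004% from counting. Log2 deviations from a gene's own mean were taken for the 6152 genes with the highest mean CPM. Over all of these genes their SD was 0.0443, 0.0388 and 0.0431 in the 3 libraries. The median deviation was 0.07, -0.01 and -0.04 for collagens in the 3 libraries and -0.02, -0.01 and 0.03 for ribosomal proteins. Collagens therefore ran highest in Con replicate 1 and ribosomal proteins in Con replicate 3. A batch or run date is not stated in the labels. Of genes at a mean of 10 CPM or more, those with the largest coefficients of variation were Exosc6 (18.4%), Rbm15 (17.2%), Nat2 (16.5%), Atat1 (16.4%) and Mipol1 (16.1%). Exosc6, a subunit of the RNA exosome, had 14.6, 10.0 and 12.6 CPM, and counting alone would give it 6.79%. Atat1, the α-tubulin acetyltransferase, had 13.2, 10.7 and 9.57 CPM.

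**Figure D5:**
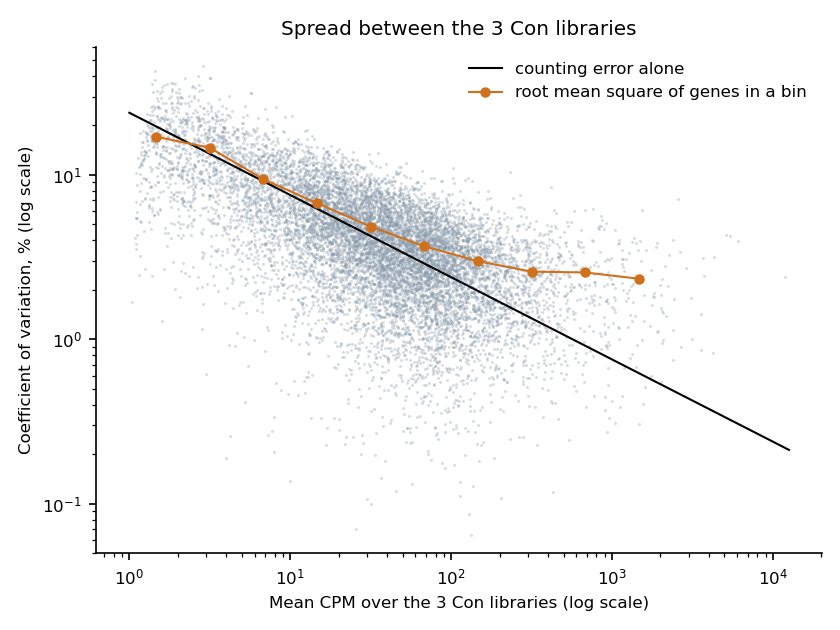
Coefficient of variation over the 3 Con libraries against mean CPM (log axes) for the 11092 detected genes (grey points), with the root mean square per bin (orange) and the level from counting error alone (black line). The orange points follow the line below 10 CPM and lie above it among abundant genes, at 2.49% against 0.606% from 1000 CPM upward.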

How the data were processed

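Poly-A RNA of NIH-3T3 was sequenced after TRIzol extraction with an MGIEasy library kit, per the labels' protocols, and the submitters' processing notes name GRCm39 as the build. The aligner, the counting program and the use of strand are not given in the sources used here. For each of 16300 genes the authors deposited an expected count, an estimate with fractional values, in every library, unscaled between libraries; the unit was read from the values, of which between 88.7% and 88.8% of a Con library were whole within 1e-06.

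Counts of the 3 Con libraries were rounded to whole numbers and scaled by TMM in edgeR 4.0.16 (R 4.3.3), with factors between 0.998 and 1.001, and given as CPM with no pseudocount. Gene numbers matched a RefSeq symbol (GRCm38.p6 table) for 16177 genes, and the 123 unmatched genes took no more than 0.118% of any Con library. Transcript length was the median over GENCODE M21 transcripts with a curated RefSeq match where there was one, and was found for 15645 genes. GENCODE M21 is annotated on the earlier mouse build, so lengths may differ from those the authors' counting used. Neighbours in an order were taken as apart where the lowest library of the higher gene exceeded the highest of the lower gene. With 1 group, no condition was tested against another and no p-value is given, and depth sets the precision: 3 counts are 0.162 to 0.176 CPM in a library, and floors cover counting error only.

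Chi-square tests of library pairs gave, per degree of freedom, 1.74 for Con replicates 1 and 2, 2.18 for 1 and 3 and 1.60 for 2 and 3, more than sampling noise, and each library was kept as its own replicate. The steps for levels, detected and silent classes and spread were run on simulated counts with known levels. Scaling factors, lengths, orders between genes and promoter matches were not tested in this way. Genes with near-identical copies, and overlapping or antisense genes, are uncertain because the handling of shared reads and strand is not given. The members and 51 gene lists were chosen with earlier results of these data known, 10 of the lists after the Con levels were seen. Named by rule were the TGF-β type I and II receptors, the 6 fibroblast markers, the 30 genes with the most reads, up to 6 members highest per kilobase and up to 6 silent or undetected members of each list, the 5 genes of largest variation, and Stc1, Stc2, Tgfb1, Acta2, Cdkn2a, Cdkn2b and Mtap. A few genes under these rules are not reported here. Other names were added after their values were seen. Alternative settings were plain library totals, DESeq2 1.42.0 size factors, TMM over all 12 libraries, other thresholds, coding length, and leaving out each library.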

Additional observations from a re-analysis of the deposited data

How the results depend on the processing

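The 11092 detected genes were counted alike under TMM, plain totals, DESeq2 size factors and TMM over all 12 libraries, and ranged from 9941 at 5 CPM to 11484 at 0.5 CPM and from 11134 to 11149 with a library left out. Requiring 0 counts in all libraries left 1371 silent genes in place of 3103, fewer than 10 summed counts gave 3902, and leaving out a library gave 3442 to 3473. The median coefficient of variation of 3.82% became 5.17% over all genes with at least 1 count and 2.94% to 3.27% with a library left out. Listed genes detected (611 of 950) numbered 613 to 616 without a library, and the 30 highest genes held 9.91% to 9.95% of counts. Of the 30 listed genes highest per kilobase, 26 were among the 30 highest by coding length and 22 by CPM without length. Among pairs apart by transcript length in the 6 highest members of each list, 356 of 421 kept their order by coding length, and of 42 lists 9 had another leading gene. Of 32 ratios computed, coding length reversed 3: Lamc1 over Lamb1, both laminin chains, was 0.901 by transcript length and 1.35 by coding length, Mmp2 over Timp2 was 1.30 and 0.358, and Igf2r over Igf1r was 1.65 and 0.707. The length itself makes that change. Of 306 list sums recomputed, 6 moved by 1 SD or more, 5 of them under TMM over all 12 libraries and 1 without Con replicate 2. No paired analysis was possible because the Con libraries are a single group and no result comes from a test. Depth limits low genes most: between 1 and 10 CPM counting error alone gave a root mean square variation of 13.004%.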

Other observations

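Genes of position and of fetal growth, in lists chosen after the Con levels were seen except for the Hox and imprinted genes, were partly expressed. Of 30 Hox genes with a row 15 were detected. Hoxd8 led at 63.7, 64.1 and 66.8 CPM, and per kilobase it reached 36.9 ± 0.946, followed by Hoxa6 (11.8 ± 1.13), Hoxa5 (8.34 ± 0.896), Hoxa7 (6.58 ± 0.546), Hoxa3 (6.0 ± 0.19) and Hoxd4 (5.47 ± 0.475), with Hoxa7, Hoxa3 and Hoxd4 overlapping in turn, while by coding length Hoxa5 (19.3), Hoxa7 (19.2) and Hoxd4 (18.7) stood above Hoxa6 (14.8). The detected Hox genes came from groups 1 to 9, while genes of the posterior groups were silent or nearly so: Hoxd11, Hoxc11 and Hoxc13 had 0 counts, Hoxd13 1, and Hoxa10 and Hoxd10 25 and 20. Other developmental regulators included, per kilobase, Prrx1 (247 ± 4.75), Twist2 (108 ± 1.61), Osr1 (59.7 ± 3.67) and Tbx15 (26.4 ± 0.672), and 32 of 40 were detected, whereas Alx4 had 1 count. Among imprinted genes (13 of 20 detected) Dlk1, a fetal growth regulator of the Notch ligand family, had 1203, 1127 and 1141 CPM and 679 ± 23.8 CPM per kilobase, above Igf2 (632 ± 11.1) without overlap, but by coding length Igf2 (4495) stood above Dlk1 (1155). Dcn, Gnas, Grb10 and Slc38a4 lay between 62.8 and 444 CPM per kilobase, while Magel2 was at 0 counts and Mest, high in fetal mesenchyme, had 21 summed counts. H19, Meg3 and Peg10 were not analysed here. The fetal architectural factors Hmga2 and Hmga1 had 463 ± 12.2 CPM and 445 ± 11.3 CPM, and all 7 listed high mobility group genes were detected. Scaled by length, Hmga2 was 0.458 ± 0.0223 times Hmga1 per kilobase and 0.935 times per coding kilobase. The Y-linked genes were detected at low levels, Ddx3y with 11.3, 9.13 and 9.04 CPM, Eif2s3y with 5.97, Uty with 2.13 and Kdm5d with 2.13 CPM. The X-linked counterpart Ddx3x had 629 ± 7.41 CPM, and the Ddx3x to Ddx3y ratio was 63.4 ± 8.44 per kilobase. These pairs are similar in sequence, so reads shared between them cannot be told apart.

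Secreted signals, lipid genes and immediate early genes, in lists chosen after the Con levels were seen, ranged from very high to silent. Prl2c2, a proliferin known from growing mouse fibroblast lines, had 1225, 1224 and 1225 CPM and 1455 ± 0.494 CPM per kilobase, although its near-identical relatives make the split among them uncertain. Prl2c3 had 38 ± 2.25 CPM. Of 30 cytokine and chemokine genes with a row 17 were detected, led per kilobase by Mif (408 ± 10.7), Ccl2 (222 ± 6.97), Cxcl5 (205 ± 5.62) and Csf1 (110.0 ± 3.76), the neutrophil and monocyte attractants among them, and by coding length Cxcl5 (816) stood above Mif (643) and Ccl2 (406). Il6 had 6.37, 7.49 and 5.81 CPM, Tnf 1 count and Csf2 0. Lipid synthesis genes were detected in 27 of 28 cases and summed to 8428 ± 71.8 CPM. The desaturase Scd2 led at 2266, 2192 and 2179 CPM and exceeded Scd1 6.24 ± 0.114-fold per kilobase, and Scd3 was at 0 counts. Among complement and antigen presentation genes (11 of 20 detected) the proteases C1s1 and C1ra had 375 ± 14.5 CPM and 180.0 ± 1.06 CPM and C3 176 ± 12.7 CPM, whereas the class II genes H2-Ab1 and H2-Eb1 had 3 and 0 counts. The Wnt list had 9 of 26 detected, with β-catenin (Ctnnb1) at 604 ± 10.4 CPM, Wnt5a the highest Wnt per kilobase at 3.0 ± 0.144, and the feedback target Axin2 at 1 count. Of the cadherins Cdh11, the cadherin of mesenchyme, had 447 ± 4.61 CPM, Cdh2 90.3 ± 1.51, and Cdh1 1 count. All 23 serum response and YAP pathway genes with a row were detected, with Egr1 at 139, 160.2 and 141 CPM, while Fos and Fosb had 2.35 ± 0.614 CPM and 2.06 ± 0.264 CPM, and Fosl1 and Fosl2, the Fos relatives known to persist in cycling cells, 68.5 ± 0.456 CPM and 316 ± 8.24 CPM.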
